A study of Mus musculus with 16 samples.

Results

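The genes of Notch signalling at the cell surface were followed in progenitors sorted from the mouse cochlea that form the organ of Corti, the sensory epithelium with its hair cells and supporting cells. They comprised 4 ligand genes (Jag1, Jag2, Dll1 and Dll3), 3 receptor genes (Notch1, Notch2 and Notch3) and 3 fringe genes (Lfng, Mfng and Rfng). They were taken by symbol, and all 10 were found among the 48709 genes of the RNA tables. Every peak interval within 50 kb of each gene was taken with them, which gave 320 of 335286 merged regions of open chromatin, 157 of 267936 of acetylated histone H3 and 71 of 74967 of Tead binding. The E13.5 cells were p27-GFP positive and the E12.0 cells Sox2-GFP positive, both sorted by FACS from the cochlea, and the protocols give rounded ages. The labels name no strain, and each sort may hold any cochlear cell that carries its reporter. Embryonic age and sorting reporter change together, so each difference below belongs to both. RNA-seq had 2 libraries per stage, ATAC-seq (Tn5 cutting of open chromatin) 3 per stage, and CUT&RUN for H3K27ac (a mark of active promoters and enhancers) 2 per stage. Tead was profiled in 2 libraries at E12.0 alone, with an antibody to all Tead proteins. In CUT&RUN a nuclease tethered by an antibody frees the DNA beside the bound protein for sequencing. Separate litters or cultures are not named in the labels, and p-values then reflect only library-to-library spread, which may be technical.

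Notch receptors are bound by ligands on the neighbouring cell, cut by proteases, and release an intracellular part that joins the DNA-binding protein Rbpj to switch on genes such as those of the Hes and Hey families. Fringe enzymes add a sugar to the receptors that alters which ligands activate them. In the developing cochlea Jag1 marks the prosensory domain, while Dll1 and Jag2 are known as ligands of neuroblasts and of nascent hair cells that keep their neighbours from taking the same fate.

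Summed expected counts (estimated reads) were 17057751 and 19570946 in the E13.5 RNA libraries, against 9412326 and 9810603 in the E12.0 libraries. Levels are given as CPM, counts scaled to library size by TMM, a scaling that centres most genes on no change. The genes of both reporters were higher at E13.5, with log2 fold changes of 4.65 ± 0.30 for Cdkn1b, which encodes p27, and 2.07 ± 0.25 for Sox2 (SE). Of 15982 genes tested with edgeR, 7340 (45.9%) passed an adjusted p of 0.05, 3579 (22.4%) higher and 3761 (23.5%) lower. The libraries also differed by stage in technical measures. The mitochondrial transcript mt-Rnr2 took 0.295% and 0.18% of counts at E13.5, against 17.0% and 13.2% at E12.0. The median of gene length minus effective length was 189 and 188 bases at E13.5, against 146 and 141 at E12.0. On log2(TPM + 1), where TPM is the count per length scaled to library size, the median of all genes lay at 0.76 instead of 0.05, so scaling decides the sign of small changes. In tissue-derived bulk RNA fewer cells of a type and less RNA per cell cannot be told apart.

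The promoters of the 4 genes around which the results below turn are shown first, as the window from 250 bases before to 50 bases after the gene start in RefSeq (GRCm38.p6, 5′ to 3′ on the gene's strand). Capitals mark GGAATG or CATTCC, a core motif of Tead factors on either strand, and TGGGAA or TTCCCA, a core motif of Rbpj on either strand. These motifs do not overlap each other in the windows shown.
Jag1 (chr2:137116471-137116770, minus strand): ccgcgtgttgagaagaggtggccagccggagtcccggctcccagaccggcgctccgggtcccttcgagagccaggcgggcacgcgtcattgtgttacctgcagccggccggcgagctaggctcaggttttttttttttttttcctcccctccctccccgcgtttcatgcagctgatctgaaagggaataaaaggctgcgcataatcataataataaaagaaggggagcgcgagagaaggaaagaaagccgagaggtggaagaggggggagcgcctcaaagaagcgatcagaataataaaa
Notch1 (chr2:26503773-26504072, minus strand): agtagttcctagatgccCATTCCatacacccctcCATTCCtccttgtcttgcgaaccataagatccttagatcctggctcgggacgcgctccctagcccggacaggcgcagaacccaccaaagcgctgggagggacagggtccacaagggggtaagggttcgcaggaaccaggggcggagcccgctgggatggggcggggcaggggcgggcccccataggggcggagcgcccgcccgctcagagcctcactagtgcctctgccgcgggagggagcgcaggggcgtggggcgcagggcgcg
Lfng (chr5:140607091-140607390, plus strand): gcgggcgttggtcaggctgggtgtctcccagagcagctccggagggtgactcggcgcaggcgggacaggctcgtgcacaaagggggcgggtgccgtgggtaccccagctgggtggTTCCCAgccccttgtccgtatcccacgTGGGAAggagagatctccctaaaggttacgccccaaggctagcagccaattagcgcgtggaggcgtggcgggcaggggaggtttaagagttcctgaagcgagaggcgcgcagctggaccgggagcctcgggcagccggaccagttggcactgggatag
Rfng (chr11:120784155-120784454, minus strand): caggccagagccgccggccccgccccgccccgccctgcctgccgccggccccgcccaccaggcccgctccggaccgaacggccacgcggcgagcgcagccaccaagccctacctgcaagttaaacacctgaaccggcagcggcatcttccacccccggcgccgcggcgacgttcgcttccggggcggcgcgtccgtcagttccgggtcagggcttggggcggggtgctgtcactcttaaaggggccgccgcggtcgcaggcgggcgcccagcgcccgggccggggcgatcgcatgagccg
The Notch1 window held 2 copies of CATTCC, starting 233 and 216 bases before the gene start. The Lfng window held TTCCCA and TGGGAA, starting 135 and 108 bases before the start. Neither the Jag1 nor the Rfng window held these letters. Over all 32851 RefSeq promoters, 14.7% held the Tead motif and 25.6% the Rbpj motif. The sequences differed widely in base composition, with a GC content of 55.7% for Jag1, 68.3% for Notch1, 66.7% for Lfng and 77.0% for Rfng.

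RNA of the ligands moved in opposite directions: Jag1 rose and Dll1 fell. Jag1 encodes a transmembrane ligand and lies on chromosome 2 (137081451 to 137116520, GRCm38). It had 867 and 971 CPM in the E13.5 libraries, against 229 and 169 CPM in the E12.0 libraries. Both E13.5 libraries lay above both E12.0 libraries, and the log2 fold change was 2.21 ± 0.27 (SE, adjusted p = 0.000144 by edgeR). Jag1 was also the ligand with the highest level per length, at 387 and 412 TPM in E13.5 cells and 46.3 and 43.3 TPM in E12.0 cells, which was 98.9% and 98.7% of the TPM of the 4 ligands at E13.5, against 89.7% and 75.8% at E12.0. That level stood above 98.03% and 97.97% of the tested genes in the E13.5 libraries.

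Dll1 (chromosome 17, 15367354 to 15376932) encodes a Delta-type ligand. It had 0 counts in both E13.5 libraries, against 24 and 51 counts in the E12.0 libraries. Measured against a floor of 3 counts over the E13.5 group, which is 0.0673 CPM, it was at least 70.7-fold lower at E13.5 than its 4.76 CPM in the pooled E12.0 libraries (edgeR adjusted p = 0.000663). Floors and bounds here cover counting error only. The 7 neuroblast and neuron markers went in both directions and summed to 13.96 and 13.82 CPM at E13.5 and 27.6 and 36.7 CPM at E12.0. Of the 5 tested, 2 fell on the TMM scale (Neurod1 and Dcx), and on log2(TPM + 1) 1 was higher (Tubb3) and 1 lower (Neurod1). Tubb3, a neuronal tubulin, had 10.05 and 9.11 CPM at E13.5, against 4.13 and 5.30 CPM at E12.0, a log2 fold change of 1.02 that was not called by edgeR (adjusted p = 0.137). Neurod1, a transcription factor of neuroblasts, had 0 and 1 counts at E13.5 and 57 and 116 at E12.0, and Neurog1, which acts before it, had 0 in both E13.5 libraries and 3 and 13 at E12.0. Neurod4 was at 0 in all 4 libraries. The part of these cells in the Dll1 difference was not tested.

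Jag2 and Dll3 gave no call. Jag2 (chromosome 12, 112907803 to 112929812), the second Jagged ligand, had 7.67 and 9.92 CPM in E13.5 cells, against 7.29 and 10.6 CPM in E12.0 cells. The stages overlapped and the log2 fold change was -0.03 ± 0.49 (SE, adjusted p = 0.971 by edgeR), with a sign that turned under other scalings. Its share of ligand TPM at E12.0, 3.99% and 6.64%, overlapped that of Dll1, 6.27% and 17.6%, so their order there is not settled beyond the spread. Dll3 (chromosome 7, 28293555 to 28301785), a divergent Delta relative that does not activate receptors on other cells, had 0 counts in every library. A count of 0 allows up to 0.143 and 0.127 CPM in the E13.5 libraries and 0.413 and 0.353 CPM in the E12.0 libraries, so RNA below those levels was not detectable.

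**Figure D1:**
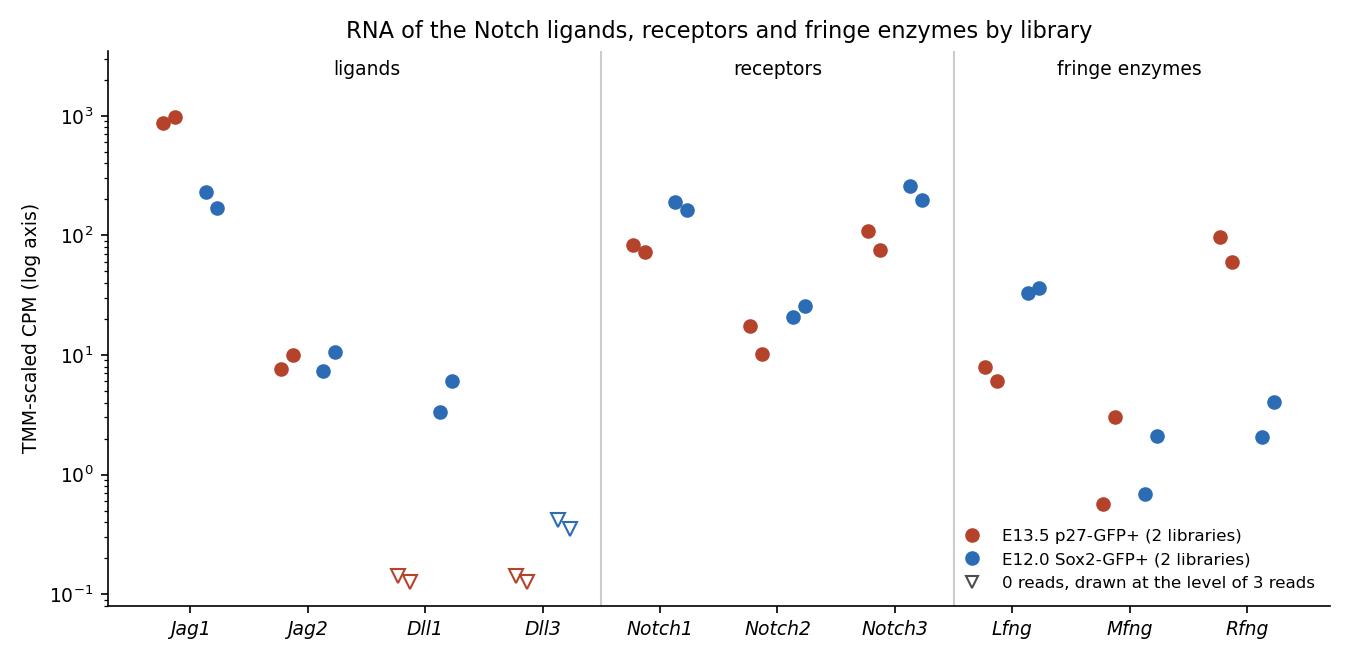
TMM-scaled CPM (log axis) of the 10 genes in each RNA library, with E13.5 libraries in red on the left and E12.0 libraries in blue on the right of each gene, and genes with 0 reads drawn as open triangles at the level of 3 reads. Jag1 and Rfng lie higher in both E13.5 libraries, and Notch1, Notch3, Lfng and Dll1 lie lower.

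Receptor RNA was lower at E13.5 for Notch1 and Notch3 on the TMM scale. Notch1 (chromosome 2, 26457902 to 26503822) encodes the widely expressed receptor needed in most Notch-dependent tissues. It had 83.8 and 72.0 CPM in the E13.5 libraries, against 189 and 163 CPM in the E12.0 libraries. The stages did not overlap and the log2 fold change was -1.18 ± 0.24 (SE, adjusted p = 0.00306 by edgeR). Notch3 (chromosome 17, 32120820 to 32166896), best known from vascular smooth muscle, had 109 and 75.9 CPM in E13.5 cells and 261 and 197 CPM in E12.0 cells. Its stages did not overlap either, with a log2 fold change of -1.30 ± 0.28 (SE, adjusted p = 0.00349 by edgeR). Both calls were lost on log2(TPM + 1), where the differences were -0.24 for Notch1 and -0.47 for Notch3 (limma adjusted p = 0.561 and 0.254). Set against the median of all genes on that scale, they were -1.0 and -1.22.

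No marker of the cells in which Notch3 is best known was called by edgeR. The 5 pericyte and smooth muscle markers summed to 12.3 and 22.6 CPM at E13.5 and 12.1 and 13.8 CPM at E12.0, and edgeR called neither of the 2 tested. On log2(TPM + 1) 1 of these 2, Pdgfrb, was higher (difference 0.96, limma adjusted p = 0.0436), beside 42.7% of all genes. Set against the median of all genes its difference was 0.21. Cspg4, with 4 and 109 counts at E13.5 and 1 and 5 at E12.0, was among those not tested. The 6 endothelial markers summed to 0.381 and 0.593 CPM at E13.5 and 4.54 and 0.118 CPM at E12.0, too few reads for a test. A second reading of the Notch1 counts is limited by a long noncoding RNA, 0610009E02Rik, whose span overlaps that of Notch1 by 1489 bases. It had 45.7 and 10.3 expected counts at E13.5, against 493 and 722 at E12.0. The sources used here do not state whether the counting used strand, and the counts of these overlapping genes cannot then be told apart with certainty. Notch3 overlaps 2 further noncoding RNAs, Gm38585 and Gm41568.

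Notch2 (chromosome 3, 98013538 to 98150367) encodes the third receptor. It had 17.4 and 10.3 CPM in E13.5 cells, against 20.8 and 25.5 CPM in E12.0 cells. The stages did not overlap, but the log2 fold change of -0.74 ± 0.40 was not called (SE, adjusted p = 0.148 by edgeR). Its deposited mean transcript length differed, at 5102 and 5889 bases in E13.5 cells and 10500 and 10500 bases in E12.0 cells. The ratio of 0.523 between the stages was undercut by 1.08% of tested genes. In TPM the difference had the other sign, with 7.88 and 3.91 TPM at E13.5 and 2.22 and 3.45 TPM at E12.0. It was not called there either (limma on log2(TPM + 1), difference 0.80, adjusted p = 0.174). Set against the median of all genes on that scale, the difference was 0.05. The parts of length and of scaling in the change of sign were not tested. Among these 3 receptor genes Notch3 came first in every library, with 51.7% and 48.4% of their TPM at E13.5 and 59.7% and 55.4% at E12.0. Notch1 followed with 35.1% and 42.6% at E13.5 and 36.7% and 39.2% at E12.0. The summed TPM of the 3 was 59.8 and 43.3 at E13.5 and 61.1 and 62.9 at E12.0. Notch4, outside these 3, had 2.57 and 4.05 TPM at E13.5 and 0.141 and 0.153 TPM at E12.0. It was not called by edgeR (adjusted p = 0.109) but was higher on log2(TPM + 1) (limma adjusted p = 0.00224).

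Among the fringe genes Rfng rose and Lfng fell, and the leading gene of the family differed between the stages. Rfng (chromosome 11, 120780745 to 120784251), radical fringe, had 2021 and 1400 counts in the E13.5 libraries, against 15 and 34 in the E12.0 libraries. In scaled units that was 96.3 and 59.3 CPM at E13.5 and 2.06 and 4.002 CPM at E12.0, with a log2 fold change of 4.66 ± 0.43 (SE, adjusted p = 3.04e-05 by edgeR). The stages were far apart, and the fold change was above that of 97.9% of all tested genes. Lfng (chromosome 5, 140607341 to 140615545), lunatic fringe, known from the segmentation clock and from cochlear supporting cells, had 8.002 and 6.103 CPM in E13.5 cells, against 32.9 and 36.0 CPM in E12.0 cells. Every E13.5 value lay below every E12.0 value, with a log2 fold change of -2.29 ± 0.37 (SE, adjusted p = 0.000708 by edgeR). Its call held on log2(TPM + 1), with a difference of -1.32 (limma adjusted p = 0.020). Mfng (chromosome 15, 78755882 to 78773516), manic fringe, had 0.572 and 3.05 CPM in E13.5 cells and 0.688 and 2.12 CPM in E12.0 cells. The replicates of each stage differed more than the stages did, and the log2 fold change of 0.36 ± 0.98 was not called (SE, adjusted p = 0.789 by edgeR). The 5 melanocyte markers summed to 4.67 and 26.7 CPM at E13.5 and 4.26 and 3.30 CPM at E12.0. The library with more Mfng thus had the larger sum at E13.5 and the smaller sum at E12.0. The markers also differed among themselves at E13.5, with 43 and 389 counts for Dct but 40 and 16 for Mitf. The part of melanocytes in the Mfng values was not tested.

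By share of the family's TPM, Rfng took 91.6% and 85.7% in E13.5 cells, against 6.28% and 9.58% in E12.0 cells. Lfng took 7.69% and 8.93% in E13.5 cells, against 91.3% and 84.3% in E12.0 cells. On average Rfng held 88.6 ± 4.2% at E13.5 and 7.93 ± 2.34% at E12.0, and Lfng 8.31 ± 0.873% and 87.8 ± 4.96% (SD, n = 2 each). These shares do not depend on the scaling between libraries. The shares were not tested. The summed fringe TPM was 109 and 73.2 at E13.5, against 18.4 and 28.2 at E12.0.

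**Figure D2:**
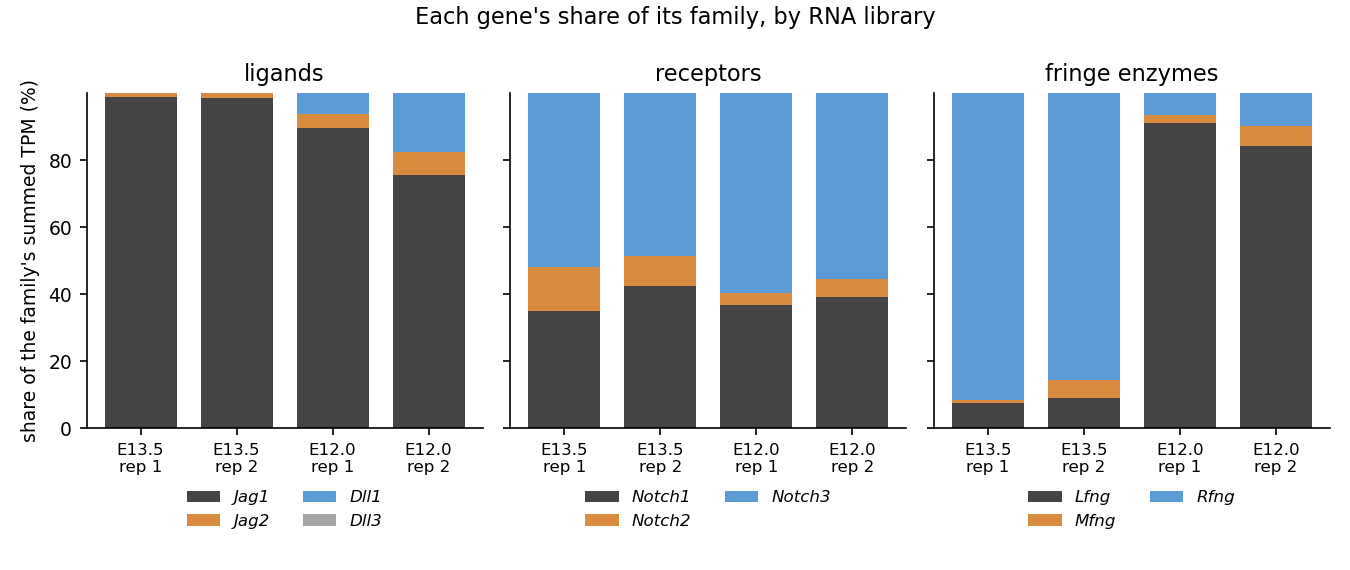
Share (%) of each gene in the TPM summed over the listed genes of its family in each RNA library, for ligands, receptors and fringe enzymes. Rfng fills most of the fringe bar at E13.5 (91.6% and 85.7%) and Lfng most of it at E12.0 (91.3% and 84.3%), while Jag1 leads the ligands in all 4 libraries.

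In all, 9 of the 10 genes passed the filter on low counts and were tested: 2 rose (Jag1 and Rfng), 4 fell (Dll1, Notch1, Notch3 and Lfng) and 3 were not called. That is 6 of 9, beside 45.9% of all genes tested. Their median log2 fold change was -0.74, beside 0.05 for all genes. On log2(TPM + 1) 2 rose and 2 fell (Dll1 and Lfng), beside 42.7% higher and 13.1% lower of all genes, and the median was 0.57 beside 0.76.

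The rest of the Notch pathway was described with a list of 55 genes by role. Of 51 tested, 13 were higher and 14 lower at E13.5, near the 22.4% and 23.5% of all genes, and the median log2 fold change was 0.21. On log2(TPM + 1) 22 were higher and 5 lower, beside 42.7% and 13.1% of all genes. Genes outside the cell nucleus moved in both directions. Of the 2 ligand-like or remaining core genes tested, Dner, a neuronal membrane protein, fell by 2.81 on the log2 scale. Of 4 ligand endocytosis genes, the ubiquitin ligases Mib2 and Mib1 rose by 2.66 and 0.76 and Neurl1b changed by -2.92. The Mib1 call was lost without the first library of either stage, and the Neurl1b call without any 1 of the 4 libraries. Both receptor glycosylation genes were lower, the fucosyltransferase Pofut1 by -0.85 and the glucosyltransferase Poglut1 by -0.74. Each of these calls was lost when any 1 library was left out (edgeR adjusted p = 0.053 to 0.146 for Pofut1 and 0.074 to 0.106 for Poglut1), and both signs turned on log2(TPM + 1).

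Of 10 genes of receptor cleavage, 3 rose and 2 fell. Nicastrin (Ncstn), the substrate-binding subunit of gamma-secretase, changed by 2.37, the cell surface protease Adam10 by 1.66 and the convertase Furin by 1.45. The gamma-secretase subunits Aph1a and Aph1b changed by -2.03 and -1.46, of which Aph1b missed the threshold on leaving out E13.5 replicate 1 (edgeR adjusted p = 0.0574). Of 9 genes of the nuclear complex, 1 rose and 3 fell. Rbpj, the DNA-binding partner of cleaved Notch, had 92.9 and 86.0 CPM in E13.5 cells, against 483 and 422 CPM in E12.0 cells, with a log2 fold change of -2.34 ± 0.25 (SE, adjusted p = 6.41e-05 by edgeR). Its co-activator Maml1 had 9.67 and 9.03 CPM in E13.5 cells and 95.6 and 160 CPM in E12.0 cells, which is -3.77 ± 0.33 on the log2 scale (SE, adjusted p = 2.08e-05 by edgeR). Both calls held on log2(TPM + 1). The acetyltransferases Kat2a and Kat2b changed by 1.21 and -1.26, calls lost without E12.0 replicate 1 for Kat2a and without replicate 2 of either stage for Kat2b.

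Of 9 corepressor genes, 4 rose and 2 fell. Among them Tle1, Tle4 and Hdac2 changed by 1.77, 1.64 and 1.58, and Tle3 by -1.95. Of 9 genes of receptor endocytosis and degradation, the ubiquitin ligase Dtx3 rose by 1.72, the adaptor Numb by 0.88, and the ubiquitin ligase subunit Fbxw7 changed by -1.14. Numb lost its call on leaving out E12.0 replicate 1 (edgeR adjusted p = 0.144). Of 6 target genes tested, 1 rose and 2 fell. Hes1, a repressor that responds directly to Notch, had 15.5 and 13.99 CPM in E13.5 cells, against 60.7 and 95.8 CPM in E12.0 cells (log2 fold change -2.41 ± 0.32, SE). Hes6, a relative that opposes Hes1 in neural tissue, had 77.3 and 88.3 CPM in E13.5 cells, against 10.3 and 14.6 CPM in E12.0 cells (log2 fold change 2.73 ± 0.31, SE). Heyl changed by -1.37, a call lost without E13.5 replicate 1 or E12.0 replicate 2. Hes5 had 5 and 0 counts at E13.5 and 0 and 11 at E12.0, and was not tested. On log2(TPM + 1) the calls of Dner, Mib1, Neurl1b, Aph1b, Kat2b, Fbxw7 and Heyl were lost, among others.

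**Figure D3:**
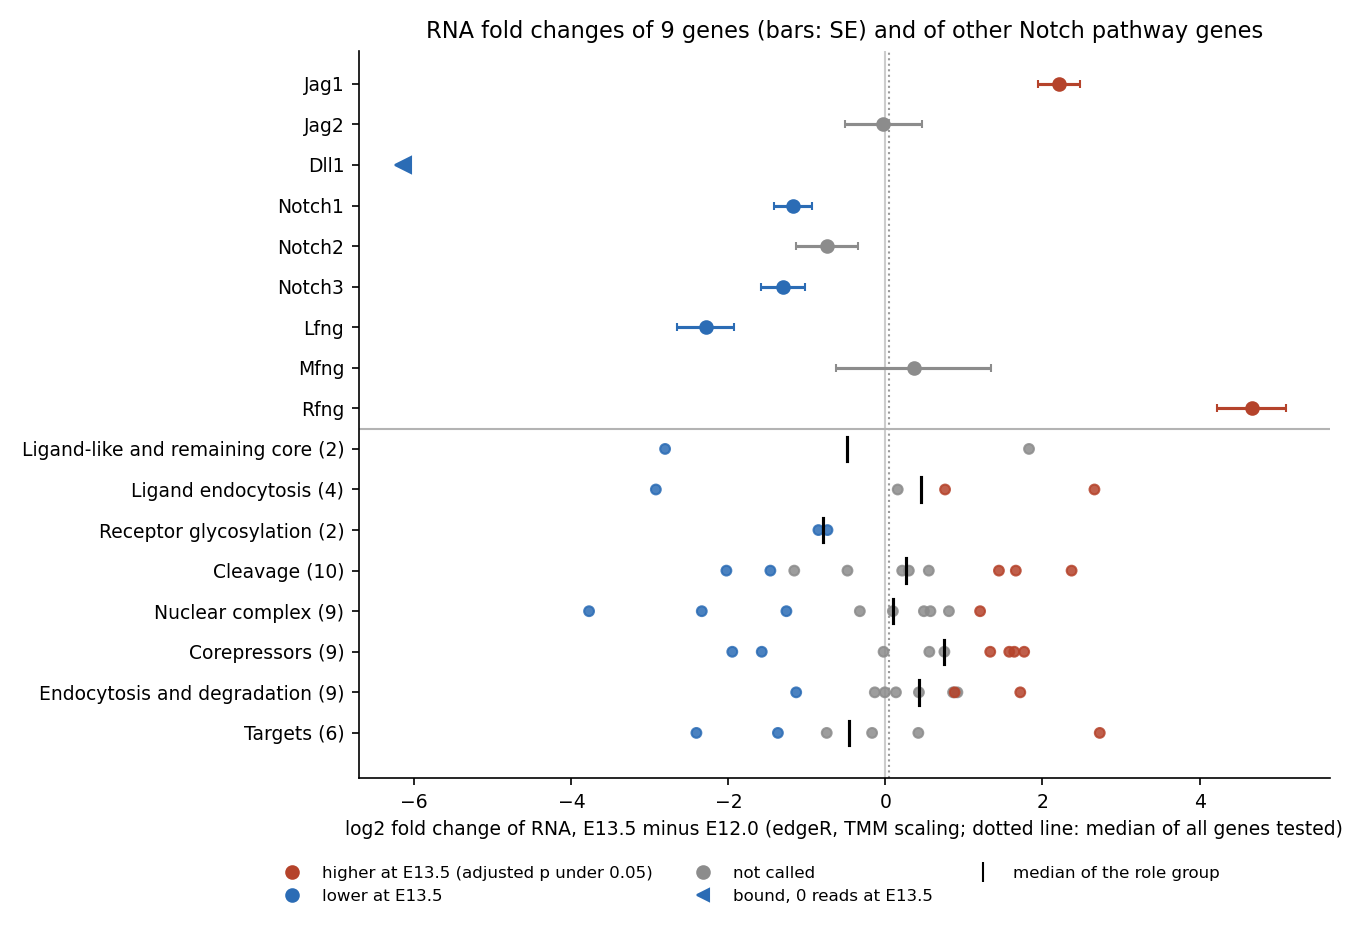
Log2 fold change of RNA, E13.5 minus E12.0, for the 9 tested ligand, receptor and fringe genes (points with SE, Dll1 as a bound) and for 51 other Notch pathway genes by role, coloured by call. Rfng at 4.66 and Jag1 at 2.21 lie to the right and Lfng at -2.29 to the left, and the role groups spread to both sides of 0 except receptor glycosylation, whose 2 genes both lie below 0.

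Most regions of open chromatin near the 10 genes, 236 of 320, were held by some libraries only and fell in no stage class. A merged region was called at 1 stage when every library of that stage and no library of the other had a peak in it by at least 1 bp. Of the 320 ATAC regions, 71 were held by all 6 libraries and 13 were E13.5 only, while none was E12.0 only. Over all regions of the genome 10.1% were held by every library, 6.6% were E13.5 only and 0.0465% E12.0 only. Near the 10 genes the shares were 22.2%, 4.06% and 0%, against 12.2%, 6.0% and 0.049% near all protein-coding genes of RefSeq, in the same order. The E13.5 lists were longer (208061 to 226496 peaks) than the E12.0 lists (112621 to 143817), with median widths of 403 to 431 against 211 to 269 bases. The E12.0 lists kept 58 to 90 peaks off the main chromosomes and the E13.5 lists 0. Without E13.5 replicate 2 the E13.5-only count was 21 and without E12.0 replicate 2 it was 29. Depth of these libraries is unknown from peak lists, and its part in the stage classes was not tested.

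The number of ATAC regions per gene ran between 15 for Dll1 and 55 for Notch2, whose span is also the longest, with a median of 31 beside 21 over 21887 genes. Notch1 had the most regions held by every library (14), followed by Jag2 and Notch3 with 10 each, and Jag1 and Dll1 had 3 each. Notch1 also had the most E13.5-only regions (3), and Jag1, Notch2, Lfng and Mfng had 2 each. Of the 13 E13.5-only regions, 8 lay inside a gene's span, and 9 had one of the 10 genes as the nearest protein-coding gene. Peaks carry a fold over local background as the authors deposited it, which is used here only to rank regions within an assay. By the smallest fold among the libraries that hold a region, the strongest E13.5-only regions were chr3:98127474-98128159 inside Notch2 (7.10) and chr2:26496424-26497056, which lies inside Notch1 with its centre 7082 bp after the gene start (5.16). The strongest near Lfng was chr5:140569085-140569628 (4.21), whose nearest gene was Grifin, and the strongest near Jag1 was chr2:137098323-137098776, inside the gene (2.86). For Jag2, Mfng and Dll1 they were weaker or similar, at chr12:112903896-112904570 (3.09), chr15:78731690-78732124 with Elfn2 nearest (3.06), and chr17:15371893-15372307 inside Dll1 (2.39). Rfng, the gene with the largest rise in RNA, had no E13.5-only region, and neither did Dll3 or Notch3.

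Regions held by all 6 libraries were strongest near Dll3 at chr7:28338103-28339217 (smallest fold 11.2), where the nearest gene was Supt5, and near Notch1 at chr2:26408448-26409614 (10.2), where it was Inpp5e or Sec16a. One of them was centred at -19343 bp from the Dll1 start, at chr17:15395753-15396798 (9.44), with Fam120b nearest, and it also carried H3K27ac in every library of both stages. This region overlapped the near edge of the Fam120b span, which lies 19270 bp from the span of Dll1. It was open and acetylated at E13.5, where Dll1 had 0 counts and Fam120b 81.5 and 74.0 CPM (43.2 and 39.9 CPM at E12.0). Which of these genes the region acts on was not tested. For Jag1 the strongest such region was chr2:137116599-137117731, centred at -645 bp from the gene start (6.07), and for Rfng it was chr11:120775842-120776618, 7974 bp after the start (8.20). For Notch2 and Mfng it overlapped one end of the gene's span, at chr3:98013041-98014313 (7.65) and chr15:78773129-78773865 (4.73). For Notch3, Lfng and Jag2 it lay nearer another gene, at chr17:32090991-32091890 (6.62, Rrp1b), chr5:140647605-140649585 (6.56, Ttyh3) and chr12:112941576-112942484 (6.37, Nudt14). The promoter windows printed above held an ATAC peak in every library of both stages. Over the 10 RefSeq windows that matched 9 of the genes, Dll1 having 2, all 10 held a peak in each E13.5 library, against 8, 10 and 9 in the E12.0 libraries. The background was 49.9% to 50.5% of 32851 promoters at E13.5 and 43.4% to 47.6% at E12.0. H3K27ac peaks lay on 4 and 0 of the 10 windows in the E13.5 libraries, beside 30.6% and 6.28% of all promoters. In the E12.0 libraries they lay on 2 and 0 windows, beside 22.5% and 14.5%, and the Jag1 and Notch1 windows held one in replicate 1 of both stages.

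**Figure D4:**
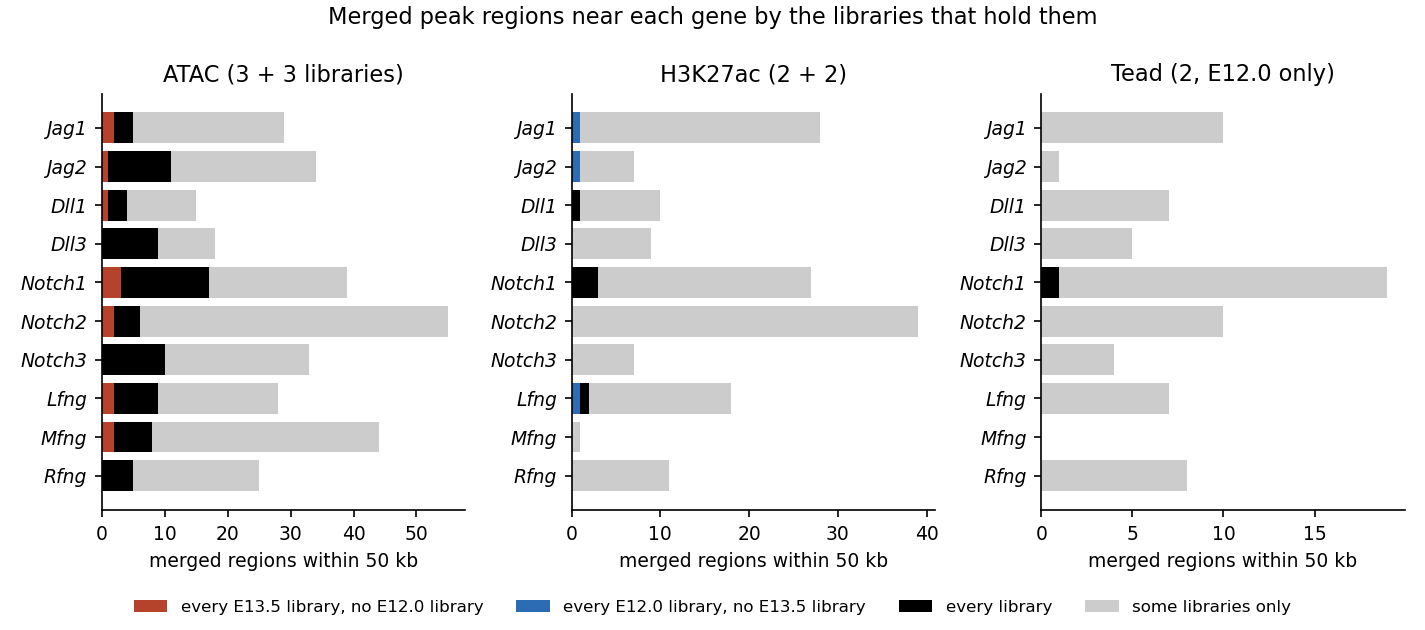
Merged peak regions within 50 kb of each of the 10 genes for ATAC, H3K27ac and Tead, split by the libraries that hold them. Most regions were held by some libraries only, Notch1 had the most ATAC regions in every library (14), and it had the single Tead region in both libraries.

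H3K27ac peaks overlapped poorly between replicates. Of 157 regions near the 10 genes, 5 were held by all 4 libraries, 3 were E12.0 only and none was E13.5 only, where 1.97%, 0.877% and 1.4% of all regions had these classes. The libraries held 90 and 29 of the 157 regions at E13.5, and 73 and 41 at E12.0. Per the labels, replicate 1 at E12.0 was made with the KAPA HTP kit and the other H3K27ac libraries with the Accel 2S Plus kit. Replicates differed at E13.5 too, where both used the same kit. The 5 regions in all libraries were 3 near Notch1, at chr2:26444542-26446374, chr2:26501486-26503415 and chr2:26524999-26526214, the region at the edge of Fam120b already described, at chr17:15395828-15396861, and chr5:140583615-140584645, at -23211 bp from the Lfng start. The second of these lies inside Notch1, centred 1372 bp after its start. The E12.0-only regions were chr2:137057564-137057960 near Jag1 with Slx4ip nearest, chr12:112924248-112924507 inside Jag2, and chr5:140600303-140600553, at -6913 bp from the Lfng start. Each library moved these counts. E13.5-only regions numbered 17 and 44 without E13.5 replicates 1 and 2, and 3 and 0 without E12.0 replicates 1 and 2. E12.0-only regions numbered 12 and 4 without E13.5 replicates 1 and 2, and 23 and 27 without E12.0 replicates 1 and 2.

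Tead peaks lay within 50 kb of 9 of the 10 genes, Mfng being the exception, but 1 of 71 regions was held by both E12.0 libraries. Over all Tead regions that share was 2.12%, and 2.28% near protein-coding genes. The libraries held 13 and 59 of the 71 regions, from lists of 18250 and 58410 peaks, and the first was made with the KAPA HTP kit and the second with the Accel 2S Plus kit. Notch1 had 19 regions, more than 96.8% of genes without regard to span, with 3 in the first library and 17 in the second, Jag1 and Notch2 had 10 each, and Rfng had 8. The region in both libraries was chr2:26502533-26503198, inside Notch1 with its centre 957 bp after the gene start, with folds of 2.72 and 2.83. It overlapped the H3K27ac region held by all 4 libraries, an ATAC region held by all 6 at its far edge (chr2:26502205-26502641), and within it an E13.5-only ATAC region (chr2:26502695-26502910, smallest fold 1.61). Over the 1590 Tead regions held by both libraries, 57.9% overlapped ATAC regions in every E12.0 library and 53.1% H3K27ac regions in both E12.0 libraries. No promoter window of the 10 genes held a Tead peak, the Notch1 window with its 2 motif copies included, beside 1.89% and 18.4% of all promoters in the libraries.

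**Figure D5:**
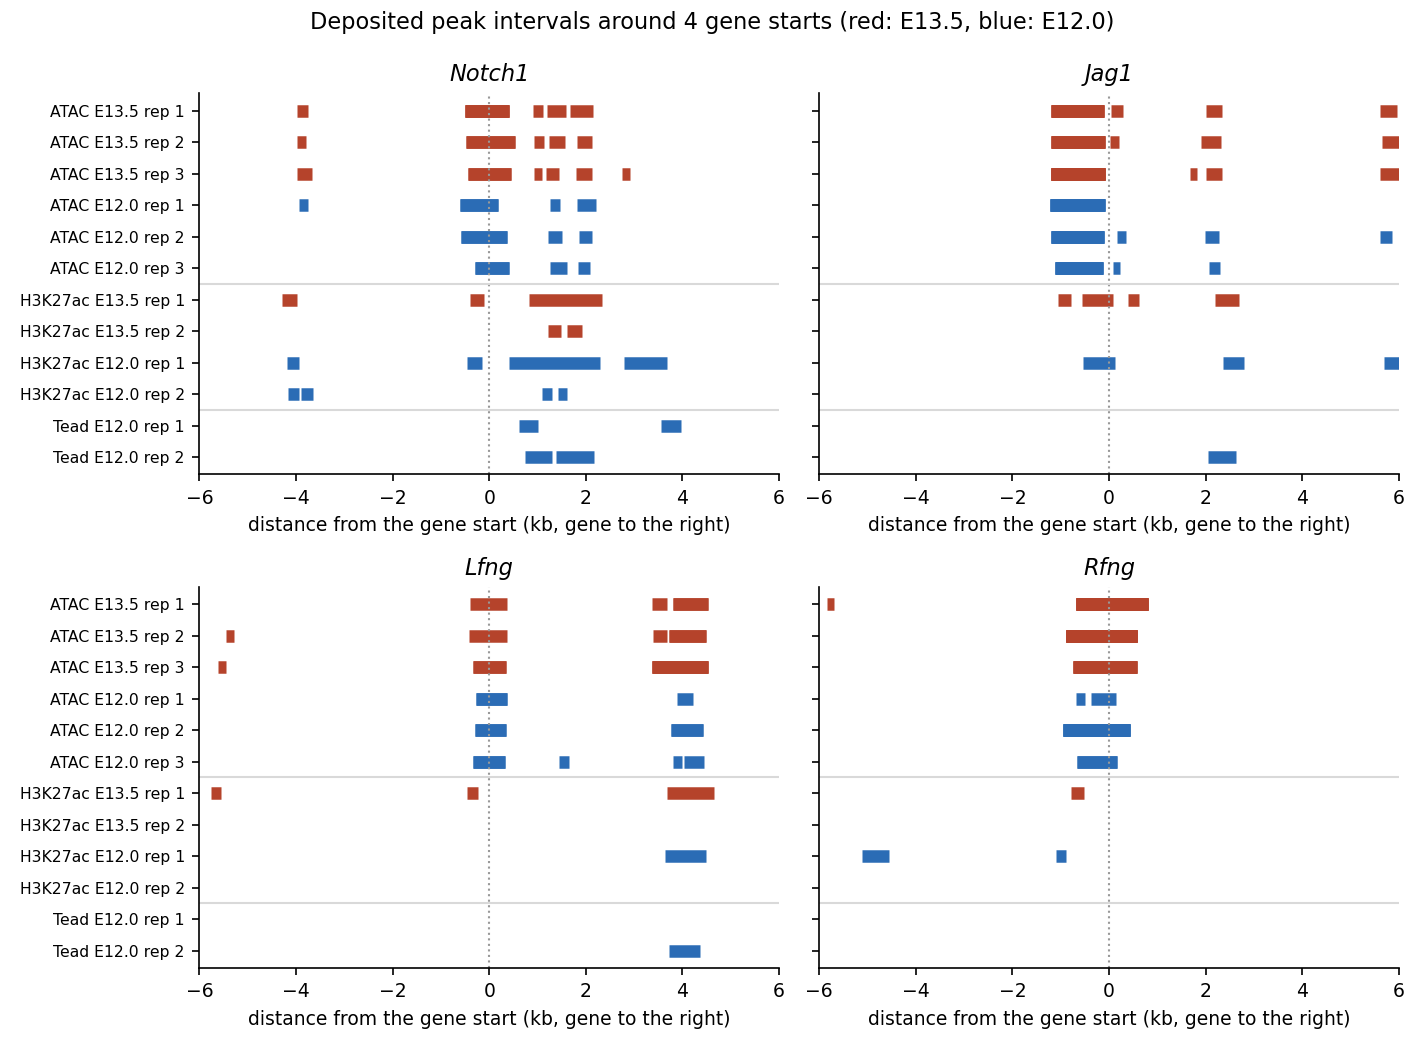
Deposited peak intervals of every library by distance from the gene start (kb, gene to the right) around Notch1, Jag1, Lfng and Rfng, with E13.5 in red above E12.0 in blue within each assay. At Notch1 both Tead libraries have a peak about 1 kb after the start next to open and acetylated chromatin, whereas near Jag1 and Lfng 1 Tead library has a peak and near Rfng none in the stretch drawn.

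Since a peak within 50 kb can also belong with another gene, the neighbours were described too. Of 29 protein-coding neighbours, 21 were tested, of which 7 were higher and 5 lower at E13.5, beside 22.4% and 23.5% of all genes. On log2(TPM + 1) 11 were higher and 1 lower, beside 42.7% and 13.1% of all genes. Beside Rfng, Gps1, a subunit of the COP9 signalosome whose span lies 9 bp away, had 138 and 155 CPM in E13.5 cells, against 50.5 and 41.3 CPM in E12.0 cells. The tRNA dihydrouridine synthase gene Dus1l, 3308 bp away, had 61.0 and 50.4 CPM in E13.5 cells, against 16.1 and 12.7 CPM in E12.0 cells. Both rose, by 1.67 ± 0.25 and 1.95 ± 0.32 on the log2 scale (SE), less than Rfng at 4.66. Beside Jag1, Slx4ip, 100 bp away, moved the other way, with 9.91 and 17.0 CPM in E13.5 cells and 34.9 and 48.8 CPM in E12.0 cells (log2 fold change -1.64 ± 0.38, SE, a call lost on log2(TPM + 1)).

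Near Lfng the membrane protein gene Ttyh3 changed by -1.20 and Iqce by 1.08. Near Notch1, Sec16a changed by -0.84 and Inpp5e, a lipid phosphatase of the cilium, by 1.16. Fam120b near Dll1 changed by 0.90, and near Dll3 the ribosomal protein gene Rps16 by -1.62 and Eid2b by 1.497. Card10 near Mfng, a scaffold gene with 67 and 108 counts at E13.5 and 2 and 4 at E12.0, rose by 3.34. The calls of Fam120b, Eid2b, Sec16a, Iqce and Card10 were each lost on leaving out at least 1 library, and on log2(TPM + 1) the calls of Rps16 and Sec16a were lost (limma adjusted p = 0.0929 and 0.0803) and the sign of Ttyh3 turned.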

How the data were processed

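Per the labels' protocols, RNA was poly(A)-selected and made into TruSeq libraries. Expected counts per Ensembl gene, with length and effective length, were deposited by the authors, 1 table per library. The sources used here do not name the counting tool. Each library had its own deposited peak list, without pooling, with a score (not used), a fold ratio over local background, −log10 p and −log10 q. STAR, MACS2, UMI-tools and the builds mm10 and GRCm38, which name the same assembly, are given in the submitters' processing notes.

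Counts were rounded, filtered with filterByExpr (15982 of 48709 genes kept), scaled by TMM and passed to the quasi-likelihood F test of edgeR 4.0.16 (no covariate, Benjamini-Hochberg over all genes, threshold 0.05) in R 4.3.3. TPM was computed from counts and effective lengths and entered limma 3.58.1 (with a trend) as log2(TPM + 1). DESeq2 1.42.0, other scalings, no filter, a pseudocount of 0.1, the replicate number as a block and leaving out each library were tried. Counts of replicates were further apart than sampling noise allows, with a chi-square per degree of freedom of 46.7 at E13.5 and 29.7 at E12.0. On simulated counts (5 draws, 200 changed genes, a median of 15536 tested) edgeR recovered 15.6% of genes changed 2-fold, 72% at 4-fold and 83.2% at 8-fold, with 4.16% false calls. Far more genes, 7340, were called in the data, and the adjusted p depends on that number. These rates therefore need not hold for the data. Symbols matched 48349 of 48709 identifiers.

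Peaks were merged over libraries at 1 bp, and gene spans came from RefSeq GRCm38.p6 (21887 protein-coding entries). Stricter peaks (deposited −log10 q of at least 2), a cover of 50% and windows of 10 and 100 kb were tried. No exons or introns were separated. The genes, lists and tests were chosen with earlier results of these data known. A pair of genes that the naming rule picked is not reported here. Named were the 10 genes, up to 3 called genes per role group and direction, up to 2 called neighbours per gene, and per gene and class the region with the largest smallest fold; the Tead and H3K27ac regions beyond that, the E13.5-only region inside the Tead region, and Hes5 and the cell type markers named singly were chosen after their values were seen.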

Additional observations from a re-analysis of the deposited data

How the results depend on the processing

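Under the other count-based scalings, DESeq2, no filter and each left-out library, the 6 calls among the 10 genes (2 higher, 4 lower) held. On log2(TPM + 1) and log2(TPM + 0.1) 2 were lower in place of 4, Notch1 and Notch3 being lost, the pathway list had 22 and 21 higher and 5 and 4 lower in place of 13 and 14, and the neighbours 11 and 11 higher and 1 and 1 lower in place of 7 and 5. The log2 difference changed sign for Jag2 (0.0416 with upper-quartile scaling, 0.0548 without the filter, 0.64 and 0.80 on the TPM scales, -0.29 to 0.26 on leaving out a library), and for Mfng (-1.29 to 1.38 on leaving out a library). On the TPM scales with pseudocounts of 1 and 0.1 it changed sign for Notch2 (0.80 and 0.98), Pofut1 (0.12 and 0.13), Poglut1 (0.0310 and 0.0313) and Ttyh3 (0.12 and 0.13). The TPM scales do not centre most genes on no change, and on log2(TPM + 1) the median of all genes lay at 0.76. The cause of these sign changes was not tested. Leaving out 1 library gave 21 to 26 pathway calls (10 to 15 higher, 9 to 12 lower) and 8 to 10 neighbour calls (4 to 6 higher, 3 to 4 lower).

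Deviations of same-numbered libraries correlated at -0.00491. With 2 libraries per stage this is a single correlation, which cannot show whether libraries of the same number were paired. With the number as a block 6 of the 10 genes, 26 pathway genes and 13 neighbours were called; no call among the 10 genes changed.

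The 13 E13.5-only ATAC regions became 29 with a cover of 50%, 26 within 100 kb and 16 to 29 on leaving out a library. E12.0-only regions numbered 0 to 3 on leaving out a library, and the 71 regions in every library became 22 with a cover of 50%, 34 within 10 kb, 111 within 100 kb and 70 to 81 on leaving out a library. For H3K27ac the 3 E12.0-only regions became 0 at −log10 q of at least 2, 7 within 100 kb and 4 to 27 on leaving out a library. E13.5-only regions numbered 1 within 100 kb and 0 to 44 on leaving out a library, and the 5 regions in every library became 1 at the stricter q, 0 with a cover of 50%, 1 within 10 kb, 10 within 100 kb and 5 to 14 on leaving out a library. The Tead region in both libraries became 0 at the stricter q, 4 within 100 kb, and 13 to 59 when 1 library stood alone. Depth behind the peak lists is unknown.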

Other observations

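Markers of cells other than prosensory progenitors varied between the libraries. The 7 mesenchyme markers summed to 358 and 453 CPM at E13.5 and 1248 and 1103 CPM at E12.0, nearly all of it from Lum. The 5 glial and neural crest markers summed to 644 and 680 CPM at E13.5 and 1792 and 2102 CPM at E12.0, mostly from Erbb3, while Sox10 of the same list went the other way, with 181 and 202 CPM at E13.5 and 49.5 and 51.8 CPM at E12.0 (log2 fold change 1.92 ± 0.24, SE, adjusted p = 0.000188 by edgeR). Of the 9 prosensory markers 5 rose and 1 fell, beside 22.4% and 23.5% of all genes tested. On log2(TPM + 1) 7 were higher and 0 lower, beside 42.7% and 13.1% of all genes. Hair cell markers summed to 21.8 and 22.2 CPM at E13.5 and 8.12 and 11.7 CPM at E12.0, at E13.5 mostly from Myo7a (19.1 and 15.6 CPM). They did not all move together. Atoh1, a transcription factor of hair cells, had 50 and 119 counts at E13.5 and 2 and 8 at E12.0, and was called higher, as was Myo7a. Pou4f3 had 8 and 32 counts at E13.5 and 2 and 53 at E12.0 and was not called. Gfi1 had 0 and 5 counts at E13.5 and 2 and 3 at E12.0 and was not tested. These summed levels were computed over lists chosen with earlier results known, and their part in the Notch results was not tested.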
